A study of Mus musculus with 4 samples.

Results

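The 32 genes described here mark the luminal cells of the mouse mammary gland or take part in their response to hormones. They were taken from a fixed list of luminal lineage genes, hormone receptors and luminal transcription factors, and all 32 were found by symbol among the 17630 genes of the expression files. By role they fell into 12 hormone receptors and hormone-sensing genes, 7 progenitor and alveolar genes, 4 luminal transcription factors and 9 surface, junction and keratin genes.

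RNA-seq was performed on 4 libraries of mammary basal cells from wild-type mice, with 1 library in each group, to ask how sympathetic nerve signals act on these cells. A pair of libraries came from basal cells sorted by flow cytometry, from untreated mice and from mice given 6-OHDA (6-hydroxydopamine), a neurotoxin that destroys sympathetic nerve endings. The other pair came from colonies that sorted basal cells formed in Matrigel, a basement membrane gel, without treatment or with SP, the β2 agonist salbutamol together with the α1 agonist phenylephrine. The label of the SP library carries the number 200 without a unit, and the labels give neither strain nor age nor how many mice were pooled. The sort took CD24-positive cells with high CD29 after depletion of cells with blood and endothelial surface markers. Cd24a, a member of the list, is the gene of CD24, and what the gate did to its level was not tested.

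The mammary duct has an outer basal layer, which is contractile, and an inner luminal layer, which makes milk. Luminal cells are either hormone-sensing, with receptors for estrogen, progesterone and prolactin, or receptor-negative progenitors that give rise to alveolar cells under Elf5. Hormone-sensing cells pass the signal on through secreted factors, among them the products of Tnfsf11 and Wnt4, to neighbours that lack the receptors.

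Levels are given in FPKM, in which fragments are divided by transcript length and by the fragments of the library, which allows comparison between genes. The FPKM values summed to 508071 in sorted control cells, 517504 in sorted 6-OHDA cells, 577631 in control colonies and 588202 in SP colonies. By a rough estimate from the steps between low values, 1 FPKM on 1 kilobase stood for between 15.3 and 18.8 fragments. Differences are of log2(FPKM + 1), a scale that understates changes of low genes, and a gene was compared where its FPKM averaged 1 or more across the pair of libraries. A gene is counted as higher or lower when this difference passed 0.3 in size. With 1 library per group no difference has a replicate check, and no test was made. In bulk RNA, fewer cells of a type and less RNA per cell cannot be told apart.

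The libraries were first examined for their cell types. Of 14 basal markers, all were detected in each library, and they summed to 12144 FPKM in sorted control cells, 11249 in sorted 6-OHDA cells, 7499 in control colonies and 15915 in SP colonies, with Krt14 the most abundant in each. Luminal keratin RNA was also abundant in cells labelled basal. Krt8 stood at 559.9 FPKM in sorted control cells, 545 in 6-OHDA cells, 698 in control colonies and 683 in SP colonies. The ratio of Krt8 to Krt14 was 0.156, 0.207, 0.212 and 0.0987 in that order, lowest in the SP colonies, where Krt14 reached 6920 FPKM. The ratio of Krt18 to Krt5 was 0.374, 0.340, 0.266 and 0.110 in the same order, and Krt19 lay between 101 and 211 FPKM.

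RNA of other cell types differed between the libraries as well. The 10 endothelial markers summed to 365 FPKM in sorted control cells and 361 in 6-OHDA cells, although the sort depleted CD31, the product of Pecam1, which was the most abundant of them at 107 and 93.0 FPKM. In control and SP colonies they summed to 14.0 FPKM, mostly Erg, and to 6.97 FPKM, mostly Egfl7, with Tie1 and Cldn5 listed at 0 in the latter. The 10 fibroblast markers summed to 200.3, 398, 42.6 and 15.5 FPKM in the order above, with Dcn on top in both sorted libraries, Col1a2 in control colonies and Pdgfra in SP colonies, where Dpt and Fap were listed at 0. Salivary gland secretory genes, 12 of 14 in the files, summed to 16094 FPKM in 6-OHDA cells, led by Bpifa2 at 7277 FPKM, and to 1.87, 1.52 and 1.68 FPKM in the other libraries, where Smr3a, Dcpp1 and Dcpp2 were listed at 0. The 7 adipocyte markers summed to 212, 377, 38.3 and 1.13 FPKM, nearly all of it from Fabp4, at 210.2, 374, 34.4 and 1.05 FPKM. Adipoq, Plin1 and Cidec, all below 2 FPKM and too low to be compared, stood higher in control colonies (1.66, 1.23 and 0.60) than in sorted control cells (0.18, 0.11 and 0.16). The 10 leukocyte markers summed to 13.4, 11.3, 1.80 and 2.14 FPKM, with Ptprc, Tyrobp and Cd3e listed at 0 in both colony libraries. The 7 Schwann cell and melanocyte markers summed to 82.7, 95.3, 20.8 and 16.6 FPKM, with Sox10 on top in sorted cells (50.6 and 61.9) and Mbp in colonies (12.9 and 8.67), while the melanocyte genes Mlana, Tyr and Dct were below 0.6 FPKM in every library. The 4 of 6 erythroid markers in the files summed to 1.51, 9.31, 0.51 and 0.28 FPKM. The part of these cell types in the differences of the luminal genes was not tested.

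All 32 luminal genes had a value above 0 in every library. Their FPKM values summed to 1206 in sorted control cells, 1152 in 6-OHDA cells, 1774 in control colonies and 1729 in SP colonies, and their median FPKM was 9.05, 8.28, 23.6 and 16.97. Epcam was the most abundant of them in each library and Cd24a the next. Epcam ranked 221, 237, 176 and 220 among all genes. The least abundant were Elf5 in sorted control cells, Spdef in 6-OHDA cells and Tnfsf11 in both colony libraries.

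**Figure D1:**
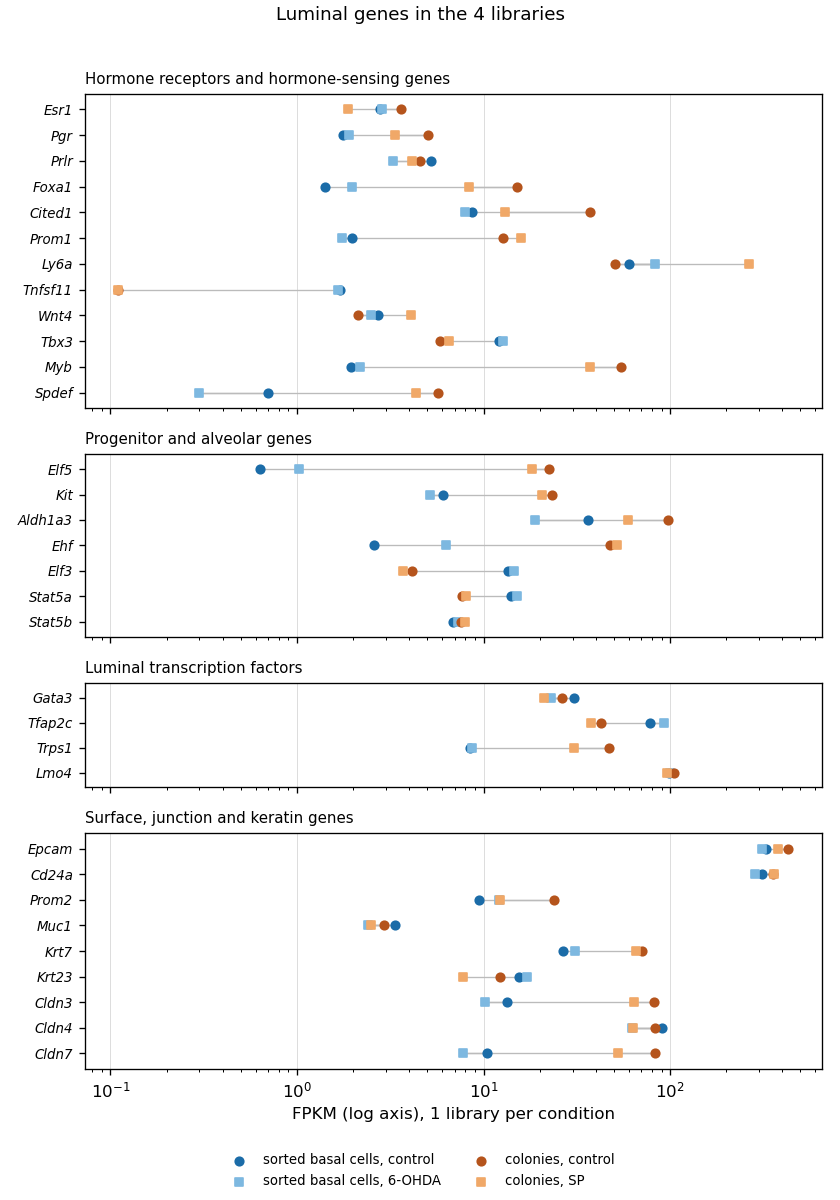
FPKM of the 32 luminal genes on a logarithmic axis, with 1 point per library and a grey line over the range of each gene. Elf5, Ehf, Myb and Foxa1 lay far to the right in both colony libraries, as for Myb at 54.5 and 37.0 FPKM against 1.94 and 2.18 in sorted cells, while Tnfsf11 lay at 0.11 FPKM in both.

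The 6-OHDA and control libraries of sorted cells differed in both directions. Of 30 genes compared, 4 were higher with 6-OHDA (13.3%, against 15.8% of all 11749 genes compared) and 7 were lower (23.3%, against 8.35%). The other 19 lay within the threshold, and Elf5 and Spdef were too low to be compared. Ly6a, Foxa1, Ehf and Prom2 were the higher genes, and Prlr, Aldh1a3, Gata3, Muc1, Cldn3, Cldn4 and Cldn7 the lower ones. At a pseudocount of 5, Muc1, Cldn3 and Cldn7 were within the threshold. The median difference was 0.03, against 0.06 for all genes. Foxa1 at 0.30 and Prom2 at 0.32 were close to the threshold and no longer passed it after scaling by the median ratio, at 0.26 and 0.27, nor at a pseudocount of 5, after rescaling to the same sum or after quantile normalization. Over all genes, 65.4% of those past the threshold were higher, and 50.5% after that scaling.

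Many luminal genes were lower in the SP colonies than in the control colonies. Of 31 genes compared, 2 were higher with SP (6.45%, against 11.7% of all 11849 genes compared) and 15 were lower (48.4%, against 19.8%). Ly6a and Wnt4 were the higher genes. Esr1, Pgr, Foxa1, Cited1, Myb, Spdef, Elf5, Aldh1a3, Gata3, Trps1, Prom2, Krt23, Cldn3, Cldn4 and Cldn7 were the lower ones. Of these, Spdef (-0.32), Elf5 (-0.30) and Gata3 (-0.31) were close to the threshold and within it at a pseudocount of 5, after scaling by the median ratio and after quantile normalization. Pgr was within it at a pseudocount of 5 (-0.26) and Cldn3 after scaling by the median ratio (-0.28). The median difference was -0.18, against -0.07 for all genes, and 14 genes lay within the threshold, while Tnfsf11 was too low to be compared. Scaled by the median ratio, 3 genes were higher and 11 lower, when 14.8% of all genes were higher and 14.9% lower. The share of higher genes among all genes past the threshold moved from 37.1% to 49.8%. Basal markers moved in the other direction, with 9 of 14 higher and 1 lower, and their part in the lower luminal values was not tested.

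Between the control colonies and the sorted control cells the luminal genes spread widely. Of 31 genes compared, 16 were higher in colonies (51.6%, against 55.7% of all 12244 genes compared) and 5 were lower (16.1%, against 26.6%), so neither share stood above that of all genes. At a threshold of 1, 15 of them were higher (48.4%, against 30.7%) and Elf3 alone was lower, where 13.2% of all genes were. The median over all genes was 0.45, and that of the luminal genes was 0.39, so a gene with a difference near 0 lay below most genes. At a mean FPKM of at least 5 the order turned, with medians of 0.43 for all genes and 1.25 for the luminal genes. After scaling by the median ratio the median was -0.003 over all genes and -0.09 over the luminal genes. With this scaling 15 luminal genes were higher and 14 lower, against 39.7% and 39.4% of all genes. Both luminal shares then stood above those of all genes. The share of higher genes among all genes past the threshold moved from 67.7% to 50.2%. The 10 endothelial markers were all lower in the colonies, with a median difference of -4.33, as were 10 of 14 basal markers, at a median of -1.25. Culture and the lower share of RNA from other cell types cannot be told apart in this comparison. It shares 1 library with each of the others, so the values of the 3 comparisons are set side by side.

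**Figure D2:**
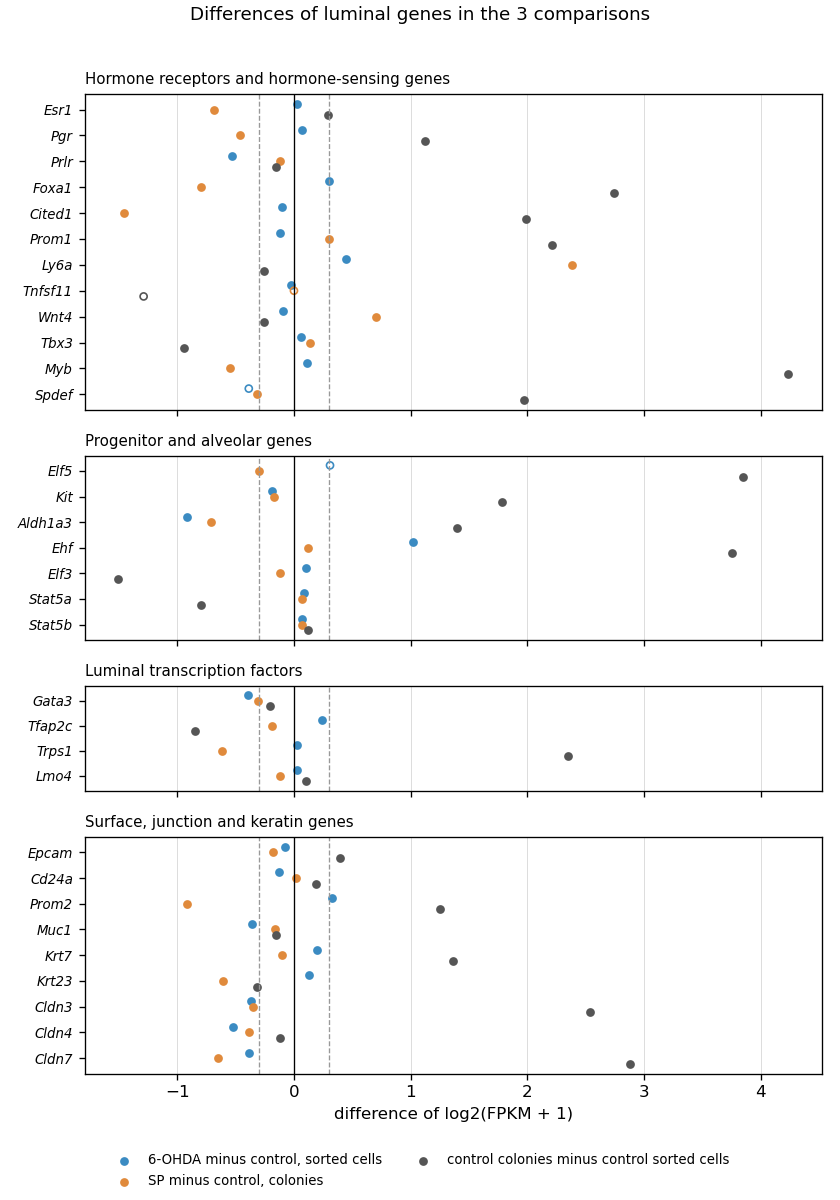
Difference of log2(FPKM + 1) of each luminal gene in the 3 comparisons, with dashed lines at the threshold of 0.3 on either side and open circles for genes too low to be compared. The differences between colonies and sorted cells ran from -1.51 for Elf3 to 4.24 for Myb, those with SP from -1.45 for Cited1 to 2.38 for Ly6a, and those with 6-OHDA from -0.92 for Aldh1a3 to 1.02 for Ehf.

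Among the 12 hormone receptors and hormone-sensing genes, the receptors themselves were low in all libraries. Esr1 (NCBI Gene 13982), which encodes estrogen receptor α, stood at 2.77 FPKM in sorted control cells, 2.85 in 6-OHDA cells, 3.62 in control colonies and 1.87 in SP colonies. It was lowest with SP, with a difference of -0.69 from control colonies, while the 6-OHDA and control cells were nearly level (0.03). Pgr (NCBI Gene 18667), the progesterone receptor gene and a target of estrogen receptor α, stood at 1.76, 1.90, 5.02 and 3.36 FPKM in the same order. Both colony libraries lay above both sorted ones, with a difference of 1.13 between the controls, and SP colonies lay 0.67-fold as high as control colonies. Prlr, the prolactin receptor gene, stood at 5.21 FPKM in sorted control cells, 3.29 in 6-OHDA cells, 4.59 in control colonies and 4.15 in SP colonies. Of the 3 receptors, Prlr alone passed the threshold with 6-OHDA (-0.53), and alone did not pass it with SP (-0.12), where Pgr too was within it at a pseudocount of 5.

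Among the transcription factors and cofactors of hormone-sensing cells, Foxa1, Cited1, Myb and Spdef differed more than the receptors between control colonies and sorted control cells. With the treatments this did not hold for all of them. Foxa1, a pioneer factor that opens chromatin for estrogen receptor α, stood at 1.42 FPKM in sorted control cells, 1.98 in 6-OHDA cells, 15.2 in control colonies and 8.32 in SP colonies. Cited1, a transcriptional cofactor found in hormone-sensing cells, stood at 8.62, 7.94, 37.3 and 13.0 FPKM. Both were highest in control colonies, and with SP they were lower, with differences of -0.80 for Foxa1 and -1.45 for Cited1, the latter at 0.348 times its control level. Myb, a transcription factor gene under estrogen control in breast cancer cells, stood at 1.94 FPKM in sorted control cells, 2.18 in 6-OHDA cells, 54.5 in control colonies and 37.0 in SP colonies. The control colonies thus held 28.1 times the level of sorted control cells, a difference of 4.24, and the SP colonies lay below them, with a difference of -0.55. Spdef, an ETS factor gene of luminal and secretory epithelium, stood at 0.70, 0.30, 5.68 and 4.36 FPKM. In sorted cells its values rested on an estimated 16.8 and 6.9 fragments, too few to compare them.

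Tbx3, a T-box factor needed for the formation of the mammary placode, ran the other way. Its level was 12.1 FPKM in sorted control cells and 12.7 in 6-OHDA cells, against 5.81 in control colonies and 6.50 in SP colonies, so both sorted libraries lay above both colony libraries. The difference between the controls was -0.94, and -1.36 after scaling by the median ratio.

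Tnfsf11 and Wnt4 encode secreted factors downstream of the hormone receptors. Tnfsf11, which encodes the progesterone-induced cytokine RANKL, stood at 1.71 FPKM in sorted control cells, 1.66 in 6-OHDA cells and 0.11 in each colony library. In the colonies this rested on an estimated 3.9 and 4.0 fragments, against 58.8 and 55.0 in sorted cells, and the gene was too low to be compared in either comparison with colonies. Wnt4, a Wnt ligand gene also induced by progesterone, stood at 2.73, 2.49, 2.13 and 4.08 FPKM. It was highest in the SP colonies, 1.92 times the control colonies (0.70), where Pgr was lower.

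Prom1 and Ly6a encode the surface proteins CD133 and Sca-1, which are used to sort hormone-sensing luminal cells. Prom1 stood at 1.97 FPKM in sorted control cells, 1.74 in 6-OHDA cells, 12.7 in control colonies and 15.9 in SP colonies. The colonies lay well above the sorted cells (2.21 between the controls), and the difference with SP was just inside the threshold at 0.297. Scaling by the median ratio moved it to 0.37. Ly6a (NCBI Gene 110454) stood at 60.5, 82.5, 50.4 and 266 FPKM. It was the only gene of the list higher with both 6-OHDA (0.44) and SP (2.38), and in the SP colonies it was 5.28 times as high as in control colonies and next to Cd24a in the order of levels. Ly6a belongs to a family of similar genes and is also expressed by endothelial and blood-forming cells. Endothelial markers summed to 365 and 361 FPKM in sorted control and 6-OHDA cells, and to 14.0 and 6.97 FPKM in control and SP colonies. The part of such cells in the Ly6a values was not tested, and how fragments were divided within the family is not known here.

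In this group of 12, 2 of 11 genes compared were higher with SP (18.2%, against 11.7% of all genes) and 6 lower (54.5%, against 19.8%), at a median of -0.32. With 6-OHDA 2 were higher (18.2%, against 15.8%) and 1 lower (9.09%, against 8.35%), at a median of 0.03. Between the controls 6 were higher in colonies (54.5%, against 55.7%) and 1 lower (9.09%, against 26.6%), at a median of 1.13 against 0.45 for all genes, so the share of higher genes was near that of all genes. After scaling by the median ratio, when 39.7% of all genes were higher and 39.4% lower, the same 6 were higher and 4 of 11 lower, with Prlr (-0.55), Ly6a (-0.76) and Wnt4 (-0.58) added to Tbx3. The same 4 were lower after rescaling to the same sum and after quantile normalization.

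The 7 progenitor and alveolar genes held large differences between colonies and sorted cells. Elf5 (NCBI Gene 13711), the ETS factor that drives alveolar differentiation, stood at 0.63 FPKM in sorted control cells, 1.02 in 6-OHDA cells, 22.5 in control colonies and 18.1 in SP colonies. The control colonies held 35.7 times the level of sorted control cells (3.85), although the sorted value rested on an estimated 14.7 fragments. Ehf (NCBI Gene 13661), an epithelial ETS factor gene, stood at 2.59, 6.26, 47.5 and 51.8 FPKM. It was 18.3 times as high in control colonies as in sorted control cells (3.76), and among sorted cells it was 2.42 times as high with 6-OHDA (1.02). This was larger in size than the difference of Aldh1a3 (-0.92), but not at a pseudocount of 5 (0.57 against -0.80), after scaling by the median ratio (0.96 against -0.975) or after quantile normalization (0.91 against -0.95). The 6-OHDA library also held the salivary gland transcripts given above, and their relation to the higher Ehf value was not tested. Elf3, another ETS factor gene of epithelia, stood at 13.5 FPKM in sorted control cells, 14.6 in 6-OHDA cells, 4.11 in control colonies and 3.71 in SP colonies. Thus Elf3 was lower in colonies by a difference of -1.51, opposite to Elf5 and Ehf.

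Kit, the receptor of stem cell factor and a marker of luminal progenitors, stood at 6.05 FPKM in sorted control cells, 5.19 in 6-OHDA cells, 23.3 in control colonies and 20.5 in SP colonies. Aldh1a3, a retinaldehyde dehydrogenase gene used to mark luminal progenitors, stood at 36.5, 18.9, 97.8 and 59.4 FPKM. Both were higher in colonies than in sorted cells, with differences of 1.79 and 1.397 between the controls. They parted with the treatments. Aldh1a3 was 0.517 times as high with 6-OHDA (-0.92) and 0.607 times as high with SP (-0.71), whereas Kit lay within the threshold in both comparisons (-0.19 and -0.18).

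Stat5a and Stat5b encode the transcription factors that prolactin activates. Stat5a stood at 14.1 FPKM in sorted control cells, 15.0 in 6-OHDA cells, 7.69 in control colonies and 8.09 in SP colonies. Stat5b stood at 6.86, 7.26, 7.53 and 7.93 FPKM. Stat5a was lower in colonies (-0.80) and Stat5b was within the threshold (0.12), or -0.32 and past it after scaling by the median ratio, while neither passed the threshold with 6-OHDA or SP. These genes are near-identical over long stretches, so the division of fragments between them is uncertain.

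In this group, 1 of 6 genes compared was higher with 6-OHDA (16.7%, against 15.8% of all genes) and 1 lower (16.7%, against 8.35%), at a median of 0.08. With SP, 2 of 7 were lower (28.6%, against 19.8%) and 0 higher (against 11.7%), at a median of -0.12. Between the controls 4 were higher in colonies (57.1%, against 55.7%) and 2 lower (28.6%, against 26.6%), both near the shares of all genes, at a median of 1.397 against 0.45. Stat5b was also lower (-0.32) after scaling by the median ratio, when 39.4% of all genes were lower.

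The 4 luminal transcription factors were expressed in every library. Gata3, which maintains luminal differentiation, stood at 30.6 FPKM in sorted control cells, 23.1 in 6-OHDA cells, 26.5 in control colonies and 21.1 in SP colonies. Each treated library lay below its own control, by -0.39 with 6-OHDA and by -0.31 with SP, the latter within the threshold after scaling by the median ratio (-0.24). Trps1, a GATA-type repressor gene, stood at 8.45, 8.62, 47.1 and 30.4 FPKM. It was 5.57 times as high in control colonies as in sorted control cells (2.35), was lower with SP (-0.62) and was level with 6-OHDA (0.03). Tfap2c, which encodes AP-2γ, stood at 78.0 FPKM in sorted control cells, 92.3 in 6-OHDA cells, 42.8 in control colonies and 37.6 in SP colonies. It was lower in colonies by -0.85 and within the threshold in the treatment comparisons (0.24 and -0.19). Lmo4, a LIM-only cofactor gene, varied least, between 96.7 and 105 FPKM. Its difference between the controls was 0.10, and -0.40 after scaling by the median ratio. As a group, 1 of the 4 was lower with 6-OHDA (25.0%, against 8.35% of all genes), 2 with SP (50.0%, against 19.8%) and 0 were higher in either (against 15.8% and 11.7%), at medians of 0.03 and -0.25. Between the controls 1 was higher (25.0%, against 55.7%) and 1 lower (25.0%, against 26.6%), at a median of -0.05 against 0.45. Scaling by the median ratio gave 3 lower genes, Gata3 (-0.69), Tfap2c and Lmo4, when 39.4% of all genes were lower.

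Claudins form the strands of tight junctions, and the 3 in the list were lower with both treatments at a pseudocount of 1. Cldn3 stood at 13.4 FPKM in sorted control cells, 10.1 in 6-OHDA cells, 82.2 in control colonies and 64.2 in SP colonies. Cldn4 stood at 90.7, 62.8, 83.5 and 63.6 FPKM. Cldn7 stood at 10.4, 7.75, 82.9 and 52.6 FPKM. In sorted control cells Cldn4 was far above the others, whereas the 3 were nearly equal in control colonies. The differences with 6-OHDA were -0.37 for Cldn3, -0.52 for Cldn4 and -0.39 for Cldn7, and at a pseudocount of 5 Cldn3 (-0.28) and Cldn7 (-0.275) were within the threshold. With SP they were -0.35, -0.39 and -0.65, and the value of Cldn3 was within the threshold after scaling by the median ratio (-0.28). Between the controls Cldn3 and Cldn7 were higher in colonies by 2.53 and 2.88, or 6.15 and 7.95 times, and Cldn4 was within the threshold (-0.12), or -0.62 after that scaling.

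The surface protein genes of the list differed widely in level. Epcam, an adhesion molecule of epithelia, stood at 328 FPKM in sorted control cells, 309.9 in 6-OHDA cells, 431 in control colonies and 381 in SP colonies. Its difference between the controls was 0.39, below the median of all genes, and it was reversed to -0.11 after scaling by the median ratio. Cd24a lay between 285 and 359 FPKM, within the threshold in all 3 comparisons, or at -0.32 between the controls after that scaling. It has near-identical copies in the genome, and the sort used its product. Prom2, a membrane protein gene related to Prom1, stood at 9.48, 12.1, 23.9 and 12.2 FPKM. It was highest in control colonies, and SP colonies held 0.510 times that level (-0.92), while Prom1 was not lower. Muc1, an apical mucin of luminal cells, lay between 2.39 and 3.34 FPKM and was lower with 6-OHDA (-0.36, or -0.17 at a pseudocount of 5).

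Keratins 7 and 23 are intermediate filament proteins of simple epithelia. Krt7 stood at 26.8 FPKM in sorted control cells, 30.9 in 6-OHDA cells, 70.6 in control colonies and 65.6 in SP colonies. It followed the sorted and cultured state (1.36) and neither treatment (0.20 and -0.10). Krt23 stood at 15.6, 17.1, 12.3 and 7.73 FPKM. It was lowest with SP, by -0.61, and lower in colonies by -0.32, or -0.25 at a pseudocount of 5. Of the 9 genes in this group, 1 was higher with 6-OHDA (11.1%, against 15.8% of all genes) and 4 lower (44.4%, against 8.35%), at a median of -0.13. With SP 0 were higher (against 11.7%) and 5 lower (55.6%, against 19.8%), at a median of -0.35. Between the controls 5 were higher (55.6%, against 55.7%) and 1 lower (11.1%, against 26.6%), and the median of 0.39 lay below the 0.45 of all genes. With the median ratio as scale 4 were higher, without Epcam, and 4 lower, namely Cldn4, Cd24a, Muc1 (-0.51) and Krt23 (-0.78), against 39.7% and 39.4% of all genes.

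The treatment comparisons used separate controls, and 29 genes were compared in both. Lower in both were Aldh1a3, Gata3, Cldn3, Cldn4 and Cldn7, which were 71.4% of the 7 genes lower with 6-OHDA and 38.5% of the 13 lower with SP among these 29. Over all 10799 genes compared in both, 198 were lower in both, 27.5% of the 720 lower with 6-OHDA and 9.49% of the 2086 lower with SP. Of the 5, 4 were lower in both after quantile normalization (all but Gata3), 3 after scaling by the median ratio (Aldh1a3, Cldn4 and Cldn7) and 2 at a pseudocount of 5 (Aldh1a3 and Cldn4). For all genes the overlap was counted only at the settings as reported. Foxa1 and Prom2 were higher with 6-OHDA and lower with SP, 50.0% of the 4 genes higher with 6-OHDA, against 16.8% of 1670 over all genes. This count was 0 at a pseudocount of 5, after rescaling to the same sum, after scaling by the median ratio and after quantile normalization. Ly6a was higher in both, 25.0% of the 4, against 18.3% of 1670. The opposite pattern, lower with 6-OHDA and higher with SP, held for 0 of the 7, against 16.3% of 720.

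Several members are neighbours in the genome (GRCm38.p6). Ehf at chr2:103263431-103303275 and Elf5 at chr2:103412098-103450989 lie 108.8 kb apart with 0 protein-coding genes between them, and both were far higher in colonies. Cldn4 at chr5:134945123-134946934 and Cldn3 at chr5:134986214-134987476 lie 39.3 kb apart, yet Cldn3 was higher in colonies and Cldn4 was not. Stat5b at chr11:100780731-100859004 and Stat5a at chr11:100859351-100885169 are separated by 346 bases, and Stat5a was lower in colonies while Stat5b was within the threshold, and lower after scaling by the median ratio or quantile normalization.

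The promoters of the genes that parted or moved furthest are shown to compare their sequence. RefSeq promoter entries of GRCm38.p6 were matched for 25 of the 32 genes, and none for Ly6a, Tbx3, Aldh1a3, Ehf, Tfap2c, Trps1 and Cd24a. The sequences are the 250 bases before the annotated start on the strand of the gene, at chr2:103411848-103412097 (plus strand) for the upstream start of Elf5, chr10:21160985-21161234 (minus strand) for Myb, chr5:134985964-134986213 (plus strand) for Cldn3 and chr5:134946935-134947184 (minus strand) for Cldn4. Capitals mark the GC box GGGCGG on either strand.
Elf5: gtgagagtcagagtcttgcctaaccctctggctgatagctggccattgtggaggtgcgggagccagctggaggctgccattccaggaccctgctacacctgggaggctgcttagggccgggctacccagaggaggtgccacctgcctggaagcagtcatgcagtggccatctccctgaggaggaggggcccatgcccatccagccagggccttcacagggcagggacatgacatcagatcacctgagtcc
Myb: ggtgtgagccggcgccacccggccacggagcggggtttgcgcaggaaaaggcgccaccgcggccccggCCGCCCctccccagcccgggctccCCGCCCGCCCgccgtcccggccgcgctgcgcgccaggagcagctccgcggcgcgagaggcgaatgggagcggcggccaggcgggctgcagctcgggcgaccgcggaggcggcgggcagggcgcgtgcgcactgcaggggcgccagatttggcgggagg
Cldn3: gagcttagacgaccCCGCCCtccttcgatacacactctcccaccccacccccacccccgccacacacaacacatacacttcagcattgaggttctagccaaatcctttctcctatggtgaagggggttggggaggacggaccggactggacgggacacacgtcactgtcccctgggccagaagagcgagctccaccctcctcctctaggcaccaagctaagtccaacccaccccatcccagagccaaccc
Cldn4: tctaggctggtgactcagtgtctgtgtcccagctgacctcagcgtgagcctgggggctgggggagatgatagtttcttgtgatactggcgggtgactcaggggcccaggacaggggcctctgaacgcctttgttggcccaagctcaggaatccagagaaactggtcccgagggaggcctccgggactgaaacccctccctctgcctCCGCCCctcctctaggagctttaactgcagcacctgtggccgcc
Counted from the start, the first base of the GC box lay at -236 in Cldn3 and at -44 in Cldn4, and at -182, -158 and -154 in Myb, where the last 2 overlap. GC content was 62.8% in Elf5, 81.2% in Myb, 60.8% in Cldn3 and 62.0% in Cldn4.

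In all, 9 motifs were searched on both strands of these windows. The GC box was in 18 of the 25 genes (72.0%), against 55.8% of 13833 genes of the files with a promoter entry. The ETS motif AGGAAG, a core with flanking bases, was in 14 (56.0%, against 32.8%). Among them were Esr1, Pgr, Prlr, Cited1, Kit, Krt7 and Cldn7, but not Elf5. The core without these flanks was not searched. The FOXA motif TGTTTAC was in Foxa1 and Prlr (8.0%, against 2.80%), the STAT5 motif TTCNNNGAA in Esr1, Prlr and Cldn7 (12.0%, against 7.42%), and the GATA motif AGATAA in Prom2 (4.0%, against 8.21%). The TATA box letters TATAAA, at any place in the window, were in Cited1, Muc1, Pgr and Tnfsf11 (16.0%, against 9.98%). Their first base lay at -31 in Muc1, at -32 in Tnfsf11 and at -212 in Pgr. In separate windows of Cited1 it lay at -13 and -115. The grainyhead core AACNNGTT was in Esr1, Muc1 and Prom1 (12.0%, against 3.87%), and the full motif AACCGGTT, which contains this core, was in 0 (against 0.202%). The estrogen response element, with the arms GGTCA and TGACC around 3 free bases, was in 0 of the 25 (against 0.0145%). Neither window of Elf5 held any of the 9.

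Further luminal genes were taken from 3 wider lists with 46 genes, of which 45 were in the files and Calca was not matched. Of 20 luminal keratin and junction genes, 19 were higher in control colonies than in sorted control cells (against 55.7% of all genes) and 0 lower (against 26.6%), at a median of 1.72, while Ovol1, an epithelial transcription factor gene, lay within the threshold. The median of all genes was passed by 17 of the 20, and not by Ovol1, Krt8 (0.32) and Krt18 (0.42). Rab25, a trafficking protein gene, stood at 7.59 FPKM in sorted control cells and 81.9 in control colonies (3.27), Tjp3, which encodes the tight junction protein ZO-3, at 0.93 and 17.1 (3.23), and Cldn8 at 0.45 and 8.65 (2.73), the lower value from an estimated 16.4 fragments. With SP 1 of 20 was higher (5.0%, against 11.7%) and 7 lower (35.0%, against 19.8%) at a median of -0.20, led by Cldn8 (-0.88) and the serine protease genes Prss8 (-0.73) and St14 (-0.52). With 6-OHDA 1 of 18 was higher (5.56%, against 15.8%) and 3 lower (16.7%, against 8.35%) at a median of -0.02. Ovol1 (-0.62), Spint1 (-0.40) and Ap1m2 (0.38) differed most, and Spint1 and Ap1m2 were within the threshold at a pseudocount of 5.

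Of 11 further hormone-sensing genes and hormone targets compared, 2 were higher in control colonies than in sorted control cells (18.2%, against 55.7% of all genes) and 6 lower (54.5%, against 26.6%), at a median of -0.48. Cish, a target of STAT5, stood at 33.95 FPKM in sorted control cells, 24.5 in 6-OHDA cells, 4.04 in control colonies and 5.12 in SP colonies. Jak2, the kinase of the prolactin receptor, stood at 56.9, 48.5, 16.2 and 13.6 FPKM. Both were lower in colonies, at -2.79 and -1.75, as was Stat5a, while Prlr was within the threshold (-0.15), or lower after scaling by the median ratio (-0.55). With SP 2 of 11 were higher (18.2%, against 11.7%) and 4 lower (36.4%, against 19.8%) at a median of -0.16. Areg, the epidermal growth factor family ligand that estrogen induces in the mammary gland, stood at 16.9 FPKM in control colonies and 46.2 in SP colonies (1.395), where Esr1 was lower. Fxyd2, a sodium pump subunit gene, stood at 5.66, 3.34, 0.71 and 4.58 FPKM, lower in the control colonies (-1.96) and higher with SP (1.71). Its value in control colonies, on which both differences rest, came from an estimated 5.0 fragments. With 6-OHDA 0 of 11 were higher (against 15.8%) and 2 lower (18.2%, against 8.35%) at a median of 0.002, namely Fxyd2 (-0.62) and Cish (-0.46), and Batf was within the threshold (0.25).

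Of 12 further progenitor and alveolar genes, 6 were higher in control colonies than in sorted control cells (50.0%, near the 55.7% of all genes) and 5 lower (41.7%, against 26.6%), at a median of 0.35. Wfdc18, a whey acidic protein family gene, stood at 32.3 FPKM in sorted control cells, 42.8 in 6-OHDA cells, 567 in control colonies and 444 in SP colonies. The milk protein genes Csn3 and Ltf were lower in control colonies, by -2.41 and -2.44, so that these alveolar genes parted from Elf5 and Wfdc18. With SP 5 were higher (41.7%, against 11.7%) and 4 lower (33.3%, against 19.8%) at a median of 0.03. The higher genes were led by Ltf, from 3.13 FPKM, an estimated 17.6 fragments, to 19.8 FPKM (2.33), Csn3, from 6.41 to 19.0 FPKM (1.43), and the integrin gene Itga2, from 6.34 to 16.9 FPKM (1.28). With 6-OHDA 3 of 11 were higher and 3 lower (27.3% each, against 15.8% and 8.35%) at a median of -0.27. Csn3 went from 38.4 to 104 FPKM (1.41), Itgb3, which encodes the luminal progenitor marker CD61, from 4.47 to 7.66 FPKM (0.66), and Cd14 from 29.9 to 20.2 FPKM (-0.55).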

How the data were processed

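The authors deposited FPKM values with 2 decimals for 17630 genes in each of 4 libraries, of which 17512 matched a gene symbol by NCBI Gene number (RefSeq, GRCm38.p6). The submitters' processing notes name the build mm10 and the tools Bowtie2, RSEM 1.3.1 and DESeq2 1.4.5, without their roles, and the annotation is not given in the sources used here. FPKM values are not counts, so no count test was run. Since FPKM divides by all fragments of a library, abundant transcripts of other cells lower all other values in it. Differences of log2(FPKM + 1) were taken in 3 comparisons, for genes whose FPKM averaged 1 or more in the libraries compared. The threshold of 0.3 was taken from the study, which gave it for the sorted cells together with an adjusted P-value. Here it was used alone, on log2(FPKM + 1) and in all 3 comparisons.

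Depth was estimated from the steps of low FPKM values in 2075 single-transcript genes, of which between 287 and 355 were used per fit. The fits scored between 0.37 and 0.51, where 1 is a perfect score, and at most 0.11 with lengths shuffled. Fragments per gene are therefore rough estimates at the median length of its coding transcripts.

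The 32 genes, the wider lists and the marker lists were chosen with earlier results of these data known. All 32 genes are named, and of each wider list the 3 compared genes with the largest difference in each comparison, with Krt8, Krt18, Krt19, Krt5 and Krt14 as reference levels. A gene that this rule names is not reported here. Other markers are named as the most abundant of their list or as listed at 0, and Ovol1 as the exception to its count. The alternatives were pseudocounts of 0.1 and 5, no filter, a mean FPKM of at least 5, rescaling to the same sum with and without the salivary gland genes, the median ratio, quantile normalization and a threshold of 1. Python 3.11.15, numpy 2.4.6, pandas 2.3.3 and matplotlib 3.10.9 were used.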

Additional observations from a re-analysis of the deposited data

How the results depend on the processing

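With 6-OHDA, 2 genes in place of 4 were higher at a pseudocount of 5, at a mean FPKM of at least 5, after rescaling to the same sum, after scaling by the median ratio and after quantile normalization, and 1 at a threshold of 1. In that order up to quantile normalization, 6.84%, 13.0%, 13.8%, 11.6% and 10.6% of all genes were higher, in place of 15.8%. In place of 7 lower genes there were 4 at a pseudocount of 5 and 0 at a threshold of 1. At a pseudocount of 5, 4.59% of all genes were lower, in place of 8.35%. With SP, 1 gene in place of 2 was higher at a mean FPKM of at least 5 and at a threshold of 1, 1 in place of 15 was lower at a threshold of 1, and the median moved from -0.185 to -0.301 at a mean FPKM of at least 5 and to -0.114 after scaling by the median ratio. At a mean FPKM of at least 5, 10.7% of all genes were higher with SP, in place of 11.7%. Between colonies and sorted cells, 5 lower genes became 10 after rescaling to the same sum, with or without the salivary gland genes, 14 after scaling by the median ratio, 11 after quantile normalization and 1 at a threshold of 1. In that order 30.5%, 39.4%, 35.6% and 13.2% of all genes were lower, in place of 26.6%. The median of 0.394 became 1.251 at a mean FPKM of at least 5, 0.209 after rescaling to the same sum, with or without the salivary gland genes, and -0.088 after scaling by the median ratio. After scaling by the median ratio the difference of Epcam there was reversed from 0.394 to -0.112, that of Lmo4 from 0.101 to -0.4 and that of Cd24a from 0.189 to -0.317. That of Stat5b was reversed from 0.118 to -0.32, and to -0.396 after quantile normalization. At a threshold of 1 all genes were counted only between colonies and sorted cells. The counts with 6-OHDA and SP at that threshold thus have no share of all genes beside them. Stricter filters and thresholds leave fewer genes by construction, and for the other changes the cause was not tested.

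Under the pseudocounts and scalings, the calls were kept for 2 of 4 higher and 4 of 7 lower genes with 6-OHDA, for 2 of 2 and 10 of 15 with SP, and for 15 of 16 and 4 of 5 between colonies and sorted cells. The share of calls kept over all genes was not counted. Over the named genes and these alternatives, 655 values stayed past or within the threshold as reported, 28 no longer passed it, 26 newly passed it in the same direction, and 5 were reversed. No library can be left out, since each group has 1, and the spread between mice is unknown for every value. Elf5, Spdef and Cldn8 in sorted cells and Tnfsf11, Fxyd2 and Ltf in control colonies rest on few fragments.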
